A study of Mus musculus with 8 samples.

Results

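The insulin-like growth factor (IGF) genes described here are 2 ligands (Igf1 and Igf2), 2 receptors (Igf1r and Igf2r) and 6 binding proteins (Igfbp2 to Igfbp7). They were taken from the deposited table by gene symbol, and all 10 listed genes were among its 15035 genes. The table holds bulk RNA sequencing of auditory nerves microdissected from mouse cochleas at postnatal day 21. Nerves of the 2 cochleas of a mouse were joined, so 1 library is 1 mouse. There were 4 libraries from wild-type mice (numbered 1 to 4) and 4 (numbered 5 to 8) whose label is heterozygote of Mef2c, a gene for a MADS-box transcription factor. The labels do not say how the Mef2c allele was made, on which strain, or of which sex the mice were, and they name no treatment. The design asks which transcripts differ between the genotypes.

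IGF1 and IGF2 are secreted growth factors that act mainly through IGF1R, a receptor tyrosine kinase that signals through insulin receptor substrates, PI3K and Akt. IGF2R, the cation-independent mannose 6-phosphate receptor, takes up IGF2 for breakdown. The binding proteins hold the ligands in the extracellular fluid and the matrix, and thereby lengthen their life or keep them from the receptor. Loss of IGF1 in mice and humans causes sensorineural deafness, and in mice it delays the maturation and myelination of the cochlear nerve.

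Values are normalized counts, that is, reads per gene scaled to make libraries comparable. Estimated depth was 13363385 to 21507181 reads per library. Wild-type library 1 stood apart, with a mean correlation of 0.938 with the other libraries across genes against 0.955 to 0.967 for the rest. It was also low in Xist, as was heterozygote-labelled library 5 (12 and 7.6 normalized counts, against at least 5175 elsewhere). Mef2c itself went against the label: it had 438.6, 498.4, 508.7 and 402.2 normalized counts in wild type and 583.3, 704.9, 735.1 and 649.8 in the libraries labelled heterozygote. The log2 fold change was 0.53 (limma-trend adjusted p 0.186), and the authors' deposited table gives an FDR of 0.0162. Directions below therefore hold between libraries as labelled. Nerve markers were present. The 9 neuron markers summed to 197304 to 271027 normalized counts and the 8 Schwann cell markers to 100500 to 141359.

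Before the values, the promoters of 3 members are shown, because these genes were among those whose levels moved together from library to library. Igfbp2 and Igfbp4 had a Pearson r of 0.97 over the 8 libraries, and Igfbp3 had an r of 0.88 with Igf2. The sequences are the 250 bases before the RefSeq start (build GRCm38.p6, the assembly also called mm10), read along the gene's strand. Capitals mark a GC box (GGGCGG) or a TATA box (TATAAA), searched on both strands.
Igfbp2, chr1:72824230-72824479, plus strand: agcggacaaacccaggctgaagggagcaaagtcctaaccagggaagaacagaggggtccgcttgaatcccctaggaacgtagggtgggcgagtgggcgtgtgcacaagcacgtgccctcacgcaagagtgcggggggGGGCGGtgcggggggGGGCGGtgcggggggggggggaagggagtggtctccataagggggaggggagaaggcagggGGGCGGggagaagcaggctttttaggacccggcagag
Igfbp4, chr11:99040994-99041243, plus strand: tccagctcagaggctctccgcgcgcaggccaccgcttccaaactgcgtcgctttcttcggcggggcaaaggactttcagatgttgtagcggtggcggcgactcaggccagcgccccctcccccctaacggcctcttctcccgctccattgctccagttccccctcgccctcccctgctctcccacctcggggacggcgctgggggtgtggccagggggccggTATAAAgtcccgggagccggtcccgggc
Igfbp3, chr11:7213924-7214173, minus strand: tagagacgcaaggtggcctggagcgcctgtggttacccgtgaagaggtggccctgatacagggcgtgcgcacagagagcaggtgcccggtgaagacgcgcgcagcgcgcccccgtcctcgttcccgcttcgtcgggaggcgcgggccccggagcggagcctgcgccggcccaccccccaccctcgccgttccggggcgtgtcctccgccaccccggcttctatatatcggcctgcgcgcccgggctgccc

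All 3 windows are rich in G and C. Their GC content was 67.2% for Igfbp2, 69.2% for Igfbp4 and 73.2% for Igfbp3, against a median of 52.4% over 32851 promoters. By these exact letters, the Igfbp2 window held 3 GC boxes and no TATA box, the Igfbp4 window 1 TATA box and no GC box. The Igfbp3 window held neither string. Other spellings were not searched, so the tatatat near the end of the Igfbp3 window was not counted. Igfbp2 and Igfbp4, the pair that moved together most closely, shared neither searched string in the windows shown. Whether promoter elements bear on their levels was not tested. RefSeq gave 14 start sites for the 10 members, with 4 for Igf2 and 2 for Igfbp2, and gene-level values do not separate them. GC boxes occurred in 6 of the 14 windows, of 5 genes (Igf1r, Igf2, Igf2r, Igfbp2 and Igfbp7), against 32.7% of all promoters. CCAAT boxes (CCAAT) occurred in 3 windows (Igf1, Igf2 and Igfbp6), against 33.8%. TATA boxes occurred in 2 (Igfbp4 and Igfbp6), against 12.4%. The MEF2 consensus was searched because Mef2c is the targeted gene. It was found in 0 of the 14 windows and in 2.92% of all promoters, and this says only that the letters are not in these 250 bases.

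Set side by side per kilobase of the longest coding transcript, 4 binding proteins had the highest mean levels of the family and Igf1 the lowest. Igfbp6 averaged 4502 normalized counts per kilobase over the 8 libraries and Igfbp5 3991. They were followed by Igfbp2 with 2870, Igfbp4 with 1997, Igf2 with 1537 and Igfbp7 with 1404. A gap came next: every library had less Igfbp3 than any library had Igfbp7, and Igfbp3 averaged 278.2 normalized counts per kilobase. Igf1r had 186.1, Igf2r 122.1 and Igf1 96.5. Of the 9 neighbouring pairs in this order, that between Igfbp7 and Igfbp3 was the only one whose ranges over libraries did not overlap. Within a library, Igfbp2 was above Igfbp4 and Igf1r above Igf2r in 8 of 8, while Igf2 was above Igfbp7 in 5 of 8, Igfbp6 above Igfbp5 in 6 of 8 and Igf2r above Igf1 in 6 of 8. The exceptions for Igf1 were wild-type library 2 and library 6. Transcript lengths came from GENCODE M21, and an isoform shorter than the longest would raise a gene's level per kilobase. Igf1 has 8 coding transcripts there and Igf2 has 7.

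**Figure D1:**
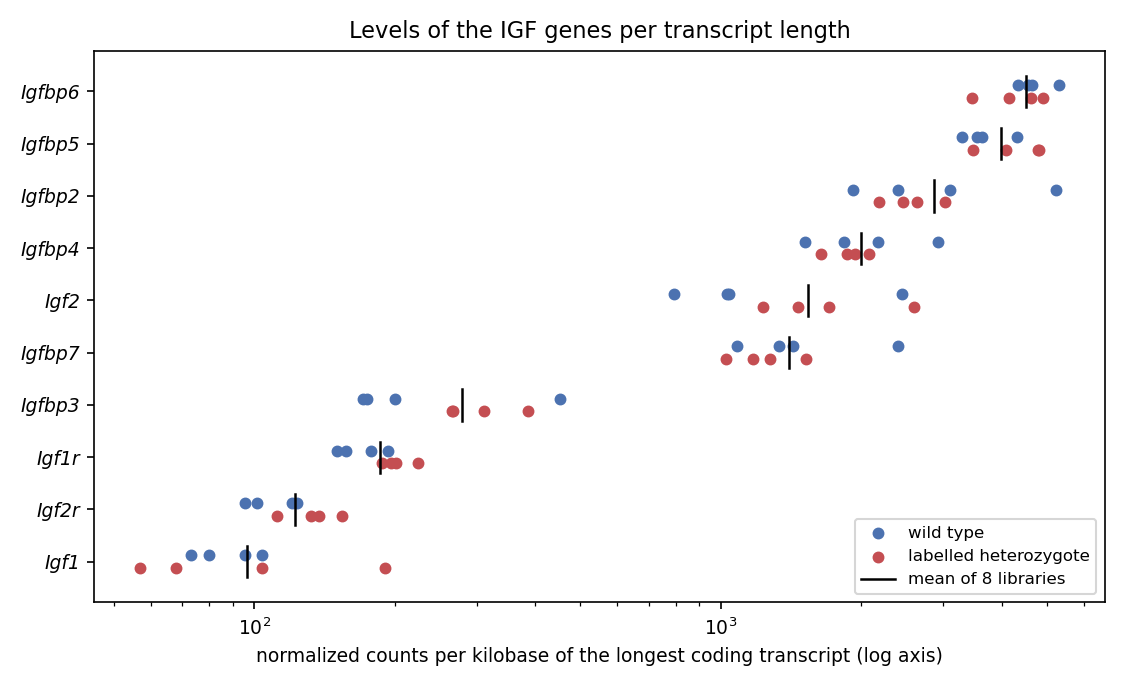
Normalized counts per kilobase of the longest coding transcript (x axis, log scale) for the 10 IGF genes (y axis). Points are libraries, blue for wild type and red for those labelled heterozygote, and the black bar is the mean of the 8 libraries. Igfbp6 and Igfbp5 lie at the top with means of 4502 and 3991, and Igf1 at the bottom with 96.5.

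Igf2 was the main ligand transcript. Per kilobase it exceeded Igf1 in all 8 libraries, by 9.92 to 25.7 times. Transcripts of the 6 binding proteins together exceeded those of the 2 ligands by 5.48 to 15.7 times, least in heterozygote-labelled library 6 and most in wild-type library 4. Among the binding protein transcripts, Igfbp6 made up 25.8% to 34.7% and Igfbp5 at least 16.8%, while Igfbp3 made up 1.10% to 2.53%. Igfbp5 had its lowest share in wild-type library 1, the library in which Igfbp2 reached its highest at 26.7%. Igfbp2 and Igfbp5 lie tail to tail on chromosome 1 with 5457 bases between them, and their levels did not rise together (r = -0.42 over the 8 libraries).

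None of the 10 genes differed between the genotypes past the threshold. With limma-trend and Benjamini-Hochberg adjustment over all 14870 tested genes, 0 of 10 passed an adjusted p of 0.05, where 0.0807% of all tested genes did. All 10 had passed the filter on low values. At an unadjusted p of 0.05, 2 of 10 passed (Igf1r and Igf2r, both higher), where 14.1% of all genes did, and the count is read against that share. In 0 of 10 were the genotypes free of overlap, where 7.26% of all genes were. By the authors' deposited table, none of the 10 had an FDR under 0.05, where 1.61% of genes did. The same 2 receptors had a p under 0.05 in the authors' deposited table, where 15.3% of genes did. The log2 fold changes of the members ran from -0.27 (Igfbp7) to 0.48 (Igf2), 6 above 0 and 4 below, with a median of 0.15 against 0.02 over all tested genes. After correction for transcript length 5 were above 0 and the median was 0.0088, against -0.013 over all genes. In these bulk samples, fewer cells of a type and less RNA per cell cannot be told apart.

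**Figure D2:**
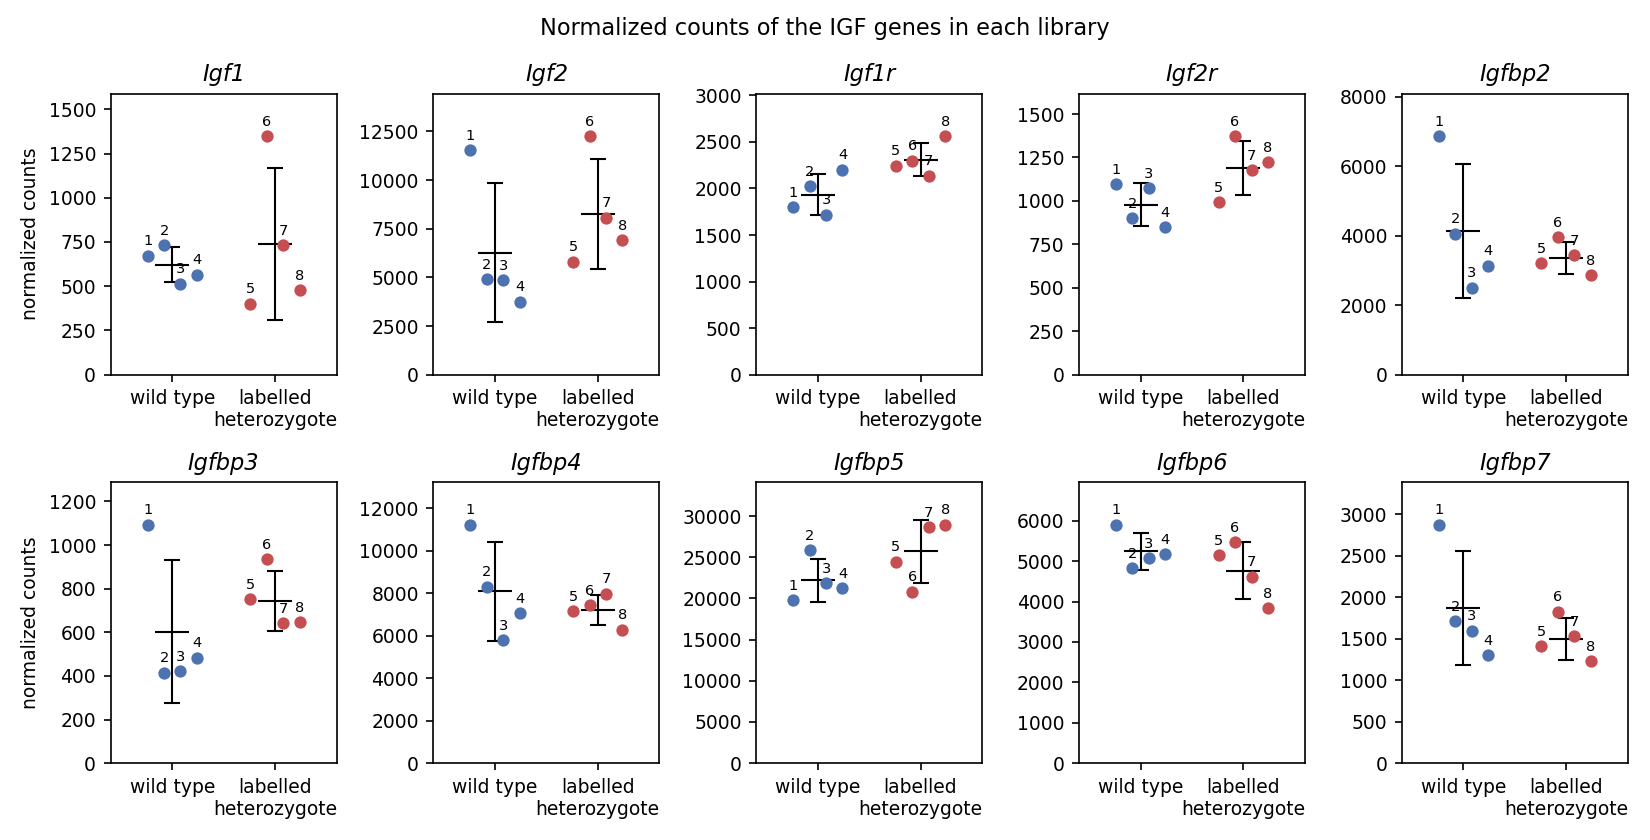
Normalized counts of each IGF gene (y axis, from 0) in wild-type libraries 1 to 4 (blue) and heterozygote-labelled libraries 5 to 8 (red). Points carry the library number, and the bar and whiskers are mean and SD of 4 libraries. The genotypes overlap in all 10 genes. Wild-type library 1 is the highest wild-type library in 7 of them, among these Igf2, Igfbp2, Igfbp3, Igfbp4 and Igfbp7.

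The ligands varied more among mice of one genotype than most genes did. Their spread within genotypes was larger than that of 88.7% of tested genes for Igf2 and of 87.7% for Igf1. Igf1 (chromosome 10, 87858265 to 87937042, plus strand, in GENCODE M21 on GRCm38, as are all gene positions here) had 672.2, 733.4, 515.1 and 564.1 normalized counts in wild-type libraries 1 to 4. In heterozygote-labelled libraries 5 to 8 it had 401.9, 1347, 732.2 and 478.2. Library 6 was thus the highest of all, while libraries 5 and 8 lay below every wild-type library. The means were 621.2 ± 99.5 and 739.8 ± 428.7 normalized counts (SD, n = 4 each). This gave a log2 fold change of 0.10 (standard error 0.30, 95% interval -0.56 to 0.76, limma-trend adjusted p 0.896). Without library 6 it was -0.24. Over the 8 libraries Igf1 ran opposite to the Schwann cell markers (r = -0.88), the strongest of its r with the marker lists. Its r with the macrophage and microglia markers was 0.50. The part of these cells was not tested.

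Igf2 (chromosome 7, 142650766 to 142666816, minus strand) is an imprinted gene, expressed from the paternal copy in most tissues. It had 11545, 4912, 4864 and 3747 normalized counts in wild-type libraries 1 to 4, so library 1 was more than double each of the others. In the libraries labelled heterozygote it had 5805, 12241, 8059 and 6899, again with 1 high library, number 6. The means were 6267 ± 3560 and 8251 ± 2815 (SD, n = 4 each). The log2 fold change of 0.48 had a standard error of 0.31 (95% interval -0.19 to 1.16, limma-trend adjusted p 0.484, two-sided exact permutation p 0.314). Single libraries moved it by more than 1.5 times: it was 0.83 without wild-type library 1, 0.28 without wild-type library 4 and 0.27 without library 6. Leaving out both libraries low in Xist gave 0.98, and Igf2 passed the threshold under none of the 19 alternatives. Igf2 overlaps the antisense gene Igf2os, and whether counting used the strand is not given in the sources used here. Igf2os had 25.4 to 75.8 normalized counts, and whether the overlap changed the counts of Igf2 was not tested.

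Igf2 varied along with connective tissue markers across libraries. Of 12 fibroblast and leptomeningeal markers, all were in the table and none was at 0. They summed to 31899 to 64408 normalized counts in wild type and to 43302 to 59562 in the libraries labelled heterozygote. 0 of the 12 passed the threshold, and their median log2 fold change was 0.09. The median deviation of these markers from their means on the log2 scale was 0.62 in wild-type library 1 and 0.35 in library 6, the 2 libraries with the most Igf2, and lowest in wild-type library 4 (-0.43), which had the least. Over the 8 libraries this median had a Pearson r of 0.95 with Igf2, and the single markers had r from 0.50 (Pdgfra) to 0.97 (Slc22a6). The 11 osteoblast and osteocyte markers, none at 0 in every library, had an r of 0.76 with Igf2 and 0.75 with Igf2r. They summed to 44559 to 52887 normalized counts in wild type and to 46395 to 62021 in the libraries labelled heterozygote. All 11 fold changes were above 0 with a median of 0.50 on the log2 scale, and 0 of 11 passed the threshold. H19, the maternally expressed RNA gene beside Igf2, had 907.1, 270.5, 310.7 and 341.8 normalized counts in wild type and 569.2, 822.5, 655.0 and 363.8 in the libraries labelled heterozygote (r = 0.87 with Igf2). Its highest values were thus in the same 2 libraries. These correlations describe 8 libraries that share dissection and scaling, and the part of connective tissue and bone cells in the levels of Igf2 and Igf2r was not tested.

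**Figure D3:**
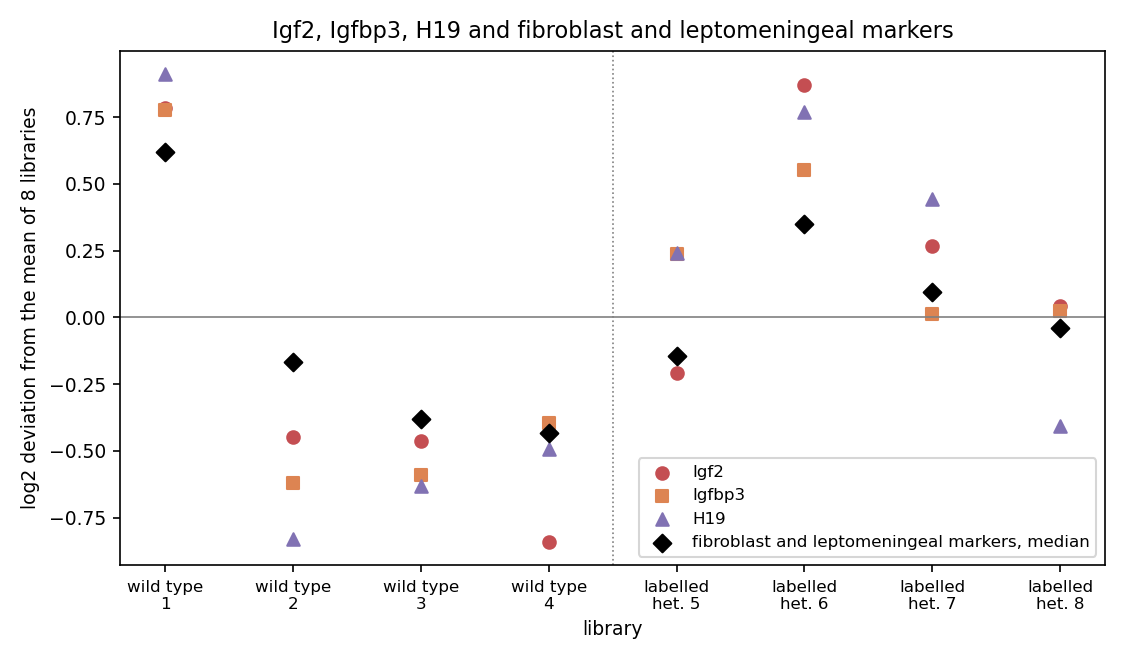
Deviation from the mean of the 8 libraries on the log2 scale (y axis) by library (x axis), for Igf2, Igfbp3, H19 and the median of 12 fibroblast and leptomeningeal markers. The dotted line parts wild type from the libraries labelled heterozygote. All 4 series are high in wild-type library 1 and library 6, where the marker median is 0.62 and 0.35, and low in wild-type libraries 2 to 4.

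Both receptors had higher means in the libraries labelled heterozygote, with small spread, and neither passed the threshold. Igf1r (chromosome 7, 67952827 to 68233668, plus strand) had 1797, 2025, 1717 and 2202 normalized counts in wild-type libraries 1 to 4. It had 2245, 2300, 2138 and 2560 in libraries 5 to 8. Of the latter, 3 lay above every wild-type library, and library 7 lay below wild-type library 4. Its log2 fold change was 0.26 (standard error 0.10, 95% interval 0.035 to 0.48), with an unadjusted p of 0.0268 and an adjusted p of 0.311 by limma-trend, and a two-sided exact permutation p of 0.0571. Its direction did not hold under every alternative: after correction for transcript length the log2 fold change was -0.025. The coding transcript of Igf1r has 11409 bases, the longest of the family.

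Igf2r (chromosome 17, 12682406 to 12769664, minus strand) had 1095, 900.5, 1072 and 849.1 normalized counts in wild type. In the libraries labelled heterozygote it had 992.8, 1371, 1176 and 1222. Again 3 lay above every wild-type library, and library 5 did not. For Igf2r the log2 fold change was 0.28 (standard error 0.13, 95% interval 0.0060 to 0.56), with an unadjusted p of 0.0459 and an adjusted p of 0.347 by limma-trend. The two-sided exact permutation p of Igf2r was 0.114. Its transcript has 8887 bases, and the length correction lowered the log2 fold change to 0.042. The antisense gene Airn, which overlaps Igf2r, had 22.7 to 54.5 normalized counts. Both receptor genes were steadier within genotypes than the ligands. Their spread was larger than that of 18.5% (Igf1r) and 34.5% (Igf2r) of tested genes.

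The binding proteins fell into those with higher and those with lower means in the libraries labelled heterozygote, none past the threshold. Igfbp5, which also binds extracellular matrix (chromosome 1, 72857932 to 72874884, minus strand), was the most counted member. It had 19787, 25884, 21842 and 21279 normalized counts in wild-type libraries 1 to 4 and 24489, 20842, 28678 and 28940 in libraries 5 to 8. Libraries 7 and 8 lay above every wild-type library, and library 6 below all but wild-type library 1. Igfbp5 had a log2 fold change of 0.21 (standard error 0.14, 95% interval -0.09 to 0.51, limma-trend adjusted p 0.493), and 0.051 after the length correction. Over the 8 libraries Igfbp5 ran opposite to Igfbp6 (r = -0.88) and along with 11 markers of hair cells, supporting cells and the lateral wall (r = 0.91). These markers summed to 148787 to 188217 normalized counts in wild type and to 167088 to 198998 in the libraries labelled heterozygote, none was at 0 in every library and 0 of 11 passed the threshold. Their part in the level of Igfbp5 was not tested.

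Igfbp3 (chromosome 11, 7206086 to 7213923, minus strand) encodes the main carrier of IGFs in blood. It had 1093, 414.0, 422.6 and 484.3 normalized counts in wild type. In the libraries labelled heterozygote it had 750.6, 934.9, 642.7 and 646.9. Wild-type libraries 2 to 4 thus lay below all 4 of these and wild-type library 1 above them. With all 8 libraries its log2 fold change was 0.41 (standard error 0.27, 95% interval -0.18 to 1.0, limma-trend adjusted p 0.493). Single libraries moved it in both directions: leaving out wild-type library 1 gave 0.74, and leaving out wild-type library 2 gave 0.28. The adjusted p of Igfbp3 lay between 0.0805 and 0.687 over the 19 alternatives. The fibroblast and leptomeningeal markers had an r of 0.88 with Igfbp3, and their part in its level was not tested.

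Igfbp2, a binding protein of brain and cerebrospinal fluid, and Igfbp4, which holds IGFs until it is cut by the protease PAPP-A, were the closest pair. Igfbp2 lies on chromosome 1 (72824503 to 72852474, plus strand) and Igfbp4 on chromosome 11 (99041244 to 99054392, plus strand). Igfbp2 had 6853, 4056, 2507 and 3134 normalized counts in wild type and 3210, 3956, 3435 and 2854 in the libraries labelled heterozygote. For Igfbp4 these were 11215, 8304, 5800 and 7045, and then 7153, 7433, 7974 and 6285. In both genes wild-type libraries 1 and 2 were the highest of the 8, and wild-type library 3 was the lowest. The log2 fold changes were -0.20 for Igfbp2 (95% interval -0.73 to 0.33) and -0.13 for Igfbp4 (-0.50 to 0.24). Their adjusted p by limma-trend was 0.713 and 0.742. Both changed sign without wild-type library 1, to 0.075 and 0.043. They were -0.41 and -0.27 without wild-type library 3, and -0.13 and -0.064 without library 8. Igfbp2 and Igfbp4 had r of 0.82 and 0.75 with the fibroblast and leptomeningeal markers. With the macrophage and microglia markers these were 0.72 and 0.69. Wild-type library 1, the highest in both genes, also had the highest median deviation of both lists on the log2 scale (0.62 and 0.38). These r may thus rest largely on 1 library, and they were not computed without it. The part of these cells was not tested.

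Igfbp6 (chromosome 15, 102144362 to 102149511, plus strand) encodes a protein that prefers IGF2 over IGF1. It had 5898, 4827, 5076 and 5177 normalized counts in wild type and 5143, 5467, 4620 and 3838 in the libraries labelled heterozygote. Libraries 7 and 8, the highest in Igfbp5, were here below every wild-type library. Its log2 fold change was -0.15 (standard error 0.12, 95% interval -0.40 to 0.11, limma-trend adjusted p 0.570), and 0.045 after the length correction. It was -0.046 without library 8 and -0.089 without wild-type library 1. Its transcript is the shortest of the family at 1112 bases. Igfbp7 (chromosome 5, 77349240 to 77408041, minus strand) encodes a protein that binds IGFs only weakly. It had 2872, 1712, 1598 and 1298 normalized counts in wild type. In libraries 5 to 8 it had 1409, 1827, 1530 and 1229, all below the wild-type mean of 1870 ± 690 (SD, n = 4), which wild-type library 1 raised. Igfbp7 had a log2 fold change of -0.27 (standard error 0.21, 95% interval -0.72 to 0.18, limma-trend adjusted p 0.555). Leaving out wild-type library 1 gave -0.041, and leaving out wild-type library 4 gave -0.42. The fibroblast and leptomeningeal markers had an r of 0.77 with Igfbp7 and the macrophage and microglia markers 0.74. Wild-type library 1 was the highest in Igfbp7 and in the median deviation of both lists (0.62 and 0.38 on the log2 scale). These r may thus rest largely on 1 library, and they were not computed without it. The part of these markers' cells was not tested. Igfbp7 lies opposite Polr2b, a gene on the other strand with 1115 to 1513 normalized counts, so the 2 genes could share reads if counting ignored the strand.

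**Figure D4:**
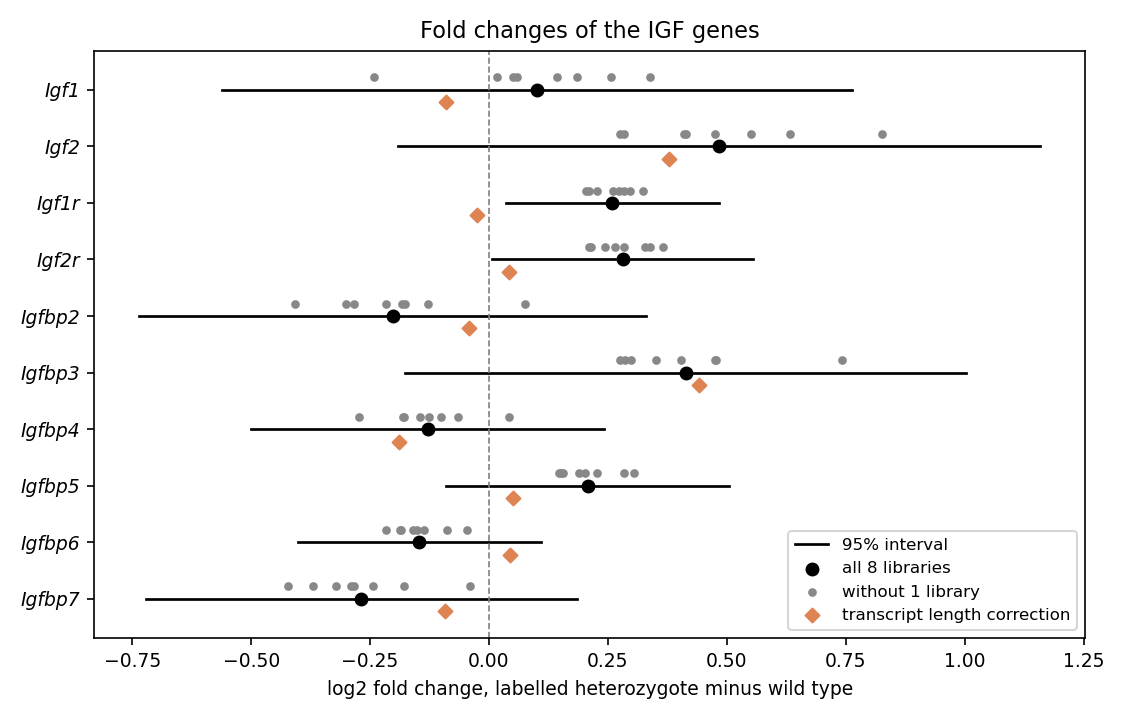
Log2 fold change of each IGF gene (x axis), the libraries labelled heterozygote minus wild type. Black points and lines are the estimate and 95% interval from all 8 libraries, grey points the fits that each left out 1 library, and orange diamonds the fit after transcript length correction. The intervals of Igf1r (0.035 to 0.48) and Igf2r (0.0060 to 0.56) lie above 0 before adjustment for the number of genes, and their diamonds lie at -0.025 and 0.042.

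Marker lists of other cell types were summed in the same libraries. The 10 oligodendrocyte markers summed to 102357 to 136361 normalized counts in wild type and to 50243 to 70276 in the libraries labelled heterozygote. Of these, 3 of 10 were lower past the threshold, where 0.0807% of all tested genes passed it in either direction. The 7 astrocyte markers summed to 22395 to 32848 and to 12259 to 20462, with 0 of 7 past it. Of the neutrophil list 4 of 7 genes were analysed, summing to 106.3 to 2346 and to 649.1 to 6030, with 0 of 4 past it. Fold changes were below 0 for 8 oligodendrocyte markers and above 0 for 2. They were below 0 for 6 astrocyte markers and above 0 for 1, and above 0 for all 4 neutrophil genes. No marker analysed in these 3 lists was at 0 in every library. Their part in the levels of the IGF genes was not tested. The 10 macrophage and microglia markers, for cells known to make Igf1, summed to 3972 to 6146 and to 3825 to 5164.

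The genes most like each ligand and receptor over the 8 libraries were ranked by Pearson r among 13356 genes with a mean of at least 50 normalized counts. For Igf1 they were F3, for tissue factor (r = 0.97), Enpep, for aminopeptidase A (0.97), and Mgll, for monoacylglycerol lipase (0.95). Enpep had 2521 normalized counts in library 6 and 333.5 to 1020 elsewhere, the same high library as in Igf1. For Igf2 they were Slc22a6, an organic anion transporter of the leptomeninges (0.97), the zinc finger gene Zic2 (0.97) and Thsd4 (0.97). For Igf1r they were Eps8l2 (0.96), Raver1 (0.93) and Kdm2a (0.93), and for Igf2r Tlr4 (0.98), Esyt2 (0.98) and Cyth3 (0.97). With so many genes and 8 libraries, high values arise for any gene, and these are descriptions only. The same caution holds for the r with marker lists. Each IGF gene was compared with every list, and mostly the stronger r are named.

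Upstream and downstream of the family, 6 lists of pathway genes held 70 genes, of which 60 were tested. By limma-trend, 0 of 60 passed an adjusted p of 0.05 in either direction. An unadjusted p under 0.05 was seen in 8 (7 higher, 1 lower), a share of 13.3% against 14.1% over all genes. The fold changes leaned upward: 47 were above 0 and 13 below, where 52.3% of all tested genes were above 0, and the median log2 fold change was 0.14 against 0.02. After the length correction 35 were above 0 and 25 below, with a median of 0.032, where all genes had 47.6% above 0 and a median of -0.013.

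The receptor adaptors and the PI3K and Akt genes, the longest list, held 5 of these 8. That is 23.8% of its 21 tested genes against 14.1% of all genes, and 0 of 21 passed the threshold. Irs1, for the substrate that IGF1R phosphorylates to recruit PI3K, had 480.2, 690.0, 682.9 and 500.1 normalized counts in wild type and 782.1, 819.9, 852.9 and 986.4 in the libraries labelled heterozygote. Its genotypes did not overlap, which held for 2 of the 60 pathway genes (Irs1 and Rheb) and for 7.26% of all tested genes. Irs1 had a log2 fold change of 0.56 (standard error 0.15, limma-trend unadjusted p 0.00235, adjusted p 0.214), and 0.32 after the length correction. The authors' deposited table gives Irs1 an FDR of 0.0454, under 0.05, where 1.61% of genes were. In the fits made here, the adjusted p of Irs1 ranged from 0.0378 to 0.591 over 19 alternatives. It passed in 1 of them, a fit with the residuals' leading component as a covariate. Gsk3b, for a kinase that Akt inhibits, had a log2 fold change of 0.44 (limma-trend adjusted p 0.285, 0.0278 to 0.618 over its alternatives) and passed in the same one. That covariate was computed from the same values, so neither pass is independent support. Shc1, an adaptor to the Ras pathway, had 0.29, Foxo3, a transcription factor held back by Akt, 0.26, and Akt2 0.24. Their adjusted p by limma-trend was 0.315, 0.341 and 0.320. After the length correction Foxo3 had 0.079 and Akt2 0.14.

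In the mTOR complex 1 branch, 0 of 12 passed the threshold. Rheb, the small GTPase that switches on the complex, had 1836, 1781, 1639 and 1778 normalized counts in wild type and 1567, 1469, 1461 and 1346 in the libraries labelled heterozygote, the other pathway gene without overlap. Its log2 fold change was -0.27 (standard error 0.09, limma-trend adjusted p 0.266), and -0.17 after the length correction. Deptor, an inhibitor of mTOR, had 0.25 (adjusted p 0.314) and 0.023 after it. Tsc1 and Mtor had 0.28 and 0.23, both with unadjusted p above 0.05.

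Upstream, in the growth hormone axis that drives Igf1, 0 of 8 passed and all 8 fold changes were above 0. The feedback inhibitors Socs1 and Cish had 1.04 and 0.49 as log2 fold changes (adjusted p 0.354 and 0.369 by limma-trend), and Stat5a and Stat5b had 0.28 and 0.22. Socs1 was low, with 10.9 to 59.4 normalized counts. Of the proteases and stanniocalcins that act on binding proteins 0 of 7 passed. Pappa, which makes the protease that cuts IGFBP4, had 259.6, 461.3, 796.6 and 472.3 normalized counts in wild type and 759.3, 462.7, 530.6 and 877.6 in the libraries labelled heterozygote (log2 fold change 0.46, limma-trend adjusted p 0.486). Stc2, Adam12 and Adam9 had 0.37, 0.13 and 0.09. Of the Igf2 mRNA binding proteins and imprinted growth genes 0 of 9 passed, with log2 fold changes of 0.52 for H19, 0.28 for Peg3, 0.74 for Igf2bp3 and 0.19 for Igf2bp2. Among the relatives, the insulin receptor gene Insr had 0.11, Insrr 0.45 and Igfals -0.32, with 0 of 3 past the threshold. Ins1, Ins2, Igfbp1 and Igfbpl1 were not analysed here.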

How the data were processed

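The authors' table has 1 deposited signal column for each library. Its values have 1 decimal and look like gene counts over a size factor. The submitters' processing notes name Partek, STAR, DESeq2 and the build mm10, without roles or versions. How reads were counted and the annotation are not given in the sources used here. The authors' deposited p-value and FDR, ratio and log2 ratio per gene, and a signed fold-change score that was not used, stand beside them, per the file headers. Per the labels' protocols, 50 ng of total RNA went into each poly(A) library, and RNA of integrity number below 7 was not sequenced.

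From the values, 88.7% to 92.0% were whole multiples of 1 step per column (within 0.051, values under 1000), too few to recover reads, so the main test is no count model. Depth was estimated from the step, and 3 reads equal 2.37 to 3.89 normalized counts. The 14870 genes that reached 10 normalized counts in 4 or more libraries were tested on log2(value + 1) with limma-trend and Benjamini-Hochberg adjustment over all of them, threshold 0.05. Fold changes are on that scale. With 4 libraries against 4, the two-sided exact permutation p cannot go below 0.0286. The fit was tested on simulated data. Transcript lengths (GENCODE M21) matched 97.6% of genes by symbol. Promoters came from RefSeq, and all 10 members matched.

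The members and lists were chosen with earlier results of these data known. Named genes were the members, Mef2c, the 3 genes nearest each ligand and receptor, and up to 4 genes of each pathway list with the smallest unadjusted p. Foxo3 was added after its values were seen. Alternatives were other pseudocounts (0.1 and 10), filters (none, 50), limma-voom on estimated reads, quantile and upper-quartile scaling, low Xist or the residuals' leading component as a covariate, no libraries low in Xist, removal of a loess trend on length (span 0.5), and each library left out. limma 3.58.1 ran in R 4.3.3. Tables and plots were made in Python 3.11.15 (pandas 2.3.3, numpy 2.4.6, matplotlib 3.10.9).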

Additional observations from a re-analysis of the deposited data

Results flagged for a closer look

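Each IGF gene and Mef2c was checked within each genotype for 1 library far from the other 3. Of 22 groups of 4, 2 held such a library, and chance gives about 1.1. Both were wild-type library 1. In Igf2 its gap to the nearest other library was 0.851 of the group's range, at 11545 normalized counts against 3747 to 4912. In Igfbp3 this share was 0.896, at 1093 against 414.0 to 484.3. The groups share libraries, and Igf2 and Igfbp3 had an r of 0.88. The 2 cases are therefore not independent, and the 1.1 is no yardstick for them. Wild-type library 1 also had the highest sums of fibroblast and leptomeningeal (64408 normalized counts), macrophage and microglia (6146) and erythroid markers (34434). Its sums of oligodendrocyte (136361), astrocyte (32848) and endothelial markers (8164) were the highest of the 8 libraries as well. It had the lowest sum of neuron markers (197304) and the lowest estimated depth (13363385 reads). The part of each was not tested.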

How the results depend on the processing

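No paired analysis was possible because no replicate number (1 to 8) occurs in both genotypes. The count of IGF genes past the threshold was 0 in all 19 alternatives. Over all genes the count of 12 became 7 with quantile normalization, 30 with the transcript length correction and 576 with the residuals' leading component as a covariate, and 0 to 221 when 1 library was left out (0 without library 2, 4 or 8, where 1919, 1451 and 1180 genes had an unadjusted limma-trend p under 0.05, 221 without library 3, 7 without library 5 and 6 without library 7). The pathway count of 0 became 2 with that component (Irs1 and Gsk3b). That component was computed from the same values after the genotype means were removed, so it left the fold changes as they were. For Igf2 the log2 fold change stayed at 0.48, while the standard error fell from 0.31 to 0.16. Calls gained in that fit are therefore not independent support. What moved the other counts was not tested. Igf2, Igf2r, Igfbp3, Igfbp5 and Igfbp7 kept their direction in all 19 alternatives. The length correction reversed Igf1 (-0.089), Igf1r (-0.025) and Igfbp6 (0.045), none past the threshold. Leaving out the 2 libraries low in Xist reversed Igfbp2 (0.094) and Igfbp4 (0.045), as did leaving out wild-type library 1 alone (0.075 and 0.043), and Igf1 was -0.24 without heterozygote-labelled library 6. With 1 library left out, the log2 fold changes ran from -0.24 to 0.34 for Igf1, from -0.41 to 0.075 for Igfbp2 and from -0.27 to 0.043 for Igfbp4. With 4 libraries a genotype, the 95% interval of Igf2 spans folds from 0.876 to 2.23.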
